A study of Mus musculus with 24 samples.

Results

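Cytosolic ribosomal protein genes encode the proteins of the large and small subunits of the ribosome outside the mitochondria. Members were chosen by symbol alone, as every Rpl or Rps gene with a number and at most 1 letter, together with Rplp0, Rplp1, Rplp2 and Rpsa, which left out the S6 kinase genes and names ending in -ps. Of 82 such symbols, 80 had a mean of at least 5 counts over the 24 libraries, 49 of the large subunit and 31 of the small subunit, among 14361 genes of all kinds that reached this mean. The remaining pair stayed below it: Rpl10l had 0 counts in every library, and Rps4l had at most 1 count in a library. Just inside the limit stood Rpl3l, with a mean of 5.75 counts, and Rpl24, with a mean of 9.5, whereas the next member, Rpl35a, had a mean of 679. Rpl3l reached the limit only through YAP-TFE3, since its mean outside that group was 2.05, so its p-values and calls are not read as results. Leaving it out shifted the members' median by at most 0.00763 in any comparison. The annotation lists Rpl6l, another member by symbol, as a processed pseudogene.

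Each ribosome holds 1 copy of nearly every ribosomal protein, the stalk proteins Rplp1 and Rplp2 excepted, so that cells keep the output of these many unlinked genes in step. Their mRNAs begin with a run of pyrimidines, the 5′ terminal oligopyrimidine (TOP) tract, through which mTOR signalling sets how much of the mRNA is translated, and growth regulators such as MYC raise their transcription. TAZ and YAP are paralogous transcriptional co-activators that act with TEAD factors at the end of the Hippo pathway and promote growth. TAZ-CAMTA1 and YAP-TFE3 are the fusion proteins of epithelioid hemangioendothelioma, a vascular sarcoma.

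RNA was sequenced from NIH 3T3 mouse fibroblasts that carried the pBabeNeo retroviral vector, and all groups shared this vector and its G418 selection. The 8 groups had 3 libraries each: after 48 hours at confluence the empty vector (EV), the hyperactive forms TAZ4SA and YAP5SA, the fusions TAZ-CAMTA1 and YAP-TFE3, and TFE3, and below confluence CAMTA1 and a further empty vector group (EVsub). TAZ4SA and YAP5SA are TAZ and YAP with serines changed to alanine, CAMTA1 and TFE3 are the full-length fusion partners, and every inserted protein carried a double Flag tag. Lines were pools of cells with stable overexpression from a viral promoter, so that neither the site nor the number of insertions was set, and the 3 libraries of a group came from separate transductions per the methods of the study. The p-values measure only the spread between these samples. The libraries held 16471181 to 30132586 counts. All 10 fibroblast markers were measured, with a summed level of 21297 to 57764 CPM (the gene's count scaled to the size of its library) in every library and Fn1 as the most abundant. By contrast the summed level stayed at or under 9.06 CPM for 5 epithelial markers, 2.63 CPM for 4 leukocyte markers and 12.1 CPM for 4 endothelial markers, led by Krt14, Itgam and Kdr.

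In EV cells the members stood far above most genes. Levels between genes were compared as CPM per kilobase of the principal transcript, with library sizes corrected by the TMM factors of edgeR. On this scale the median member reached 738 in EV against 9.12 for 12321 protein-coding genes tested, and the middle 50% of the members lay between 417 and 1056. Member transcripts were short, with a median of 874.5 bases against 3021. The most abundant per length were Rplp1 at 2772 CPM per kilobase, Rps6 at 2448, Rpl41 at 2394, Rplp0 at 2182 and Rps4x at 2133. At the low end stood Rps27l at 71.7, Rpl29 at 57.2, Rpl34 at 49.2 and Rpl35a at 43.6, then Rpl24 at 0.824 and Rpl3l at 0.0436. Annotated processed copies held 10.2 counts for each count on Rpl34 and 0.284 on Rpl35a, so these levels are uncertain. That of Rpl24, which overlaps another transcript, is uncertain as well.

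A set of 60-base windows around the annotated start is shown because the TOP tract that these mRNAs share begins there. Sequences came from RefSeq on build GRCm38.p6, and 59 of the 80 members matched, with 71 windows. Each runs 5′ to 3′ from 30 bases before the start to 30 bases from it on, and capitals mark CTTTCC or CTCTTT, pyrimidine runs that were searched on the strand of the gene and were chosen after the windows had been looked at. The first 4 hold one of these hexamers, which in Rpl39l lies before the annotated start and in Rpl13a some bases after it. The last 3 hold neither, although Rpl22l1 has a pyrimidine run of other letters close after its start.
Rps6 (chr4:86857338-86857397, minus strand): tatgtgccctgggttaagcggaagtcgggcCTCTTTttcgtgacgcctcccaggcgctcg
Rps27 (chr3:90213619-90213678, minus strand): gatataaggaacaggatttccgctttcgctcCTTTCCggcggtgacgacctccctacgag
Rpl13a (chr7:45128716-45128775, minus strand): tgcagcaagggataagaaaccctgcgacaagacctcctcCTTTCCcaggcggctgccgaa
Rpl39l (chr16:10170198-10170257, plus strand): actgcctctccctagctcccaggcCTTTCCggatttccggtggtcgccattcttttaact
Rps27l (chr9:66946056-66946115, plus strand): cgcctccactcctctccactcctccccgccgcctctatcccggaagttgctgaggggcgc
Rpl10 (chrX:74270786-74270845, plus strand): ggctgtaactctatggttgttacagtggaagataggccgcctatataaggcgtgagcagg
Rpl22l1 (chr3:28805478-28805537, plus strand): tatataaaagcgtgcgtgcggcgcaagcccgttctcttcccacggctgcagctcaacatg

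CTTTCC was present in 18.3% of the members' windows against 2.89% of all 32851 windows of this length and 2.78% of the 13005 windows of genes tested. For CTCTTT the shares were 15.5%, 2.29% and 1.81%, and for either hexamer 28.2%, 4.83% and 4.25%. Since the hexamers were picked from the members' own windows, the excess of these shares is no test. In windows of 300 bases searched on both strands, CCGGAAG, the core bound by ETS factors, was in 36.6% of the members' windows, 8.86% of all and 17.0% of those of genes tested. The E-box CACGTG, which MYC can bind, was in 11.3%, 7.15% and 9.71%, and GGAATG, the core of the TEAD motif, in 8.45%, 14.7% and 12.5%. Each match is a description of letters in a window, and no factor's binding was measured.

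The share of all counts that fell on the members gives the simplest view of the set, shown library by library in the plot of shares. In percent of the library total it was 6.6, 5.48 and 6.11% in EV and 6.41, 6.89 and 7.57% in EVsub. It was higher, at 12.8, 15 and 9.83% in TAZ4SA and 10.9, 13.8 and 11.8% in YAP5SA. The remaining confluent groups held less, with 4.77, 5.02 and 4.65% in TAZ-CAMTA1, 3.66, 4.8 and 5.14% in YAP-TFE3 and 5.5, 4.98 and 5.08% in TFE3, and the sub-confluent CAMTA1 group had 5.01, 5.67 and 5.78%. Every TAZ4SA and YAP5SA library therefore lay above every other library, with no overlap, whereas every TAZ-CAMTA1 and YAP-TFE3 library lay below every EV library. Within TAZ4SA the libraries spread widely, from 9.83% in replicate 3 to 15.0% in replicate 2, and the 3 TAZ-CAMTA1 libraries lay close together.

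As group means the share was 6.06% ± 0.558 (SD, n = 3) in EV, 12.5% ± 2.59 in TAZ4SA and 12.2% ± 1.50 in YAP5SA. It was 4.81% ± 0.189 in TAZ-CAMTA1, 4.53% ± 0.779 in YAP-TFE3, 5.19% ± 0.274 in TFE3, 5.49% ± 0.414 in CAMTA1 and 6.95% ± 0.582 in EVsub. No test was run on this score. Counting error was small beside these differences, since the 95% Wilson intervals reached at most 0.0172 percentage points to either side and cover counting error only. Whether a larger share reflects more ribosomal protein mRNA per cell or less of other mRNA per cell cannot be told apart in bulk libraries, and the same holds for fewer cells of a type against less RNA per cell.

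**Figure D1:**
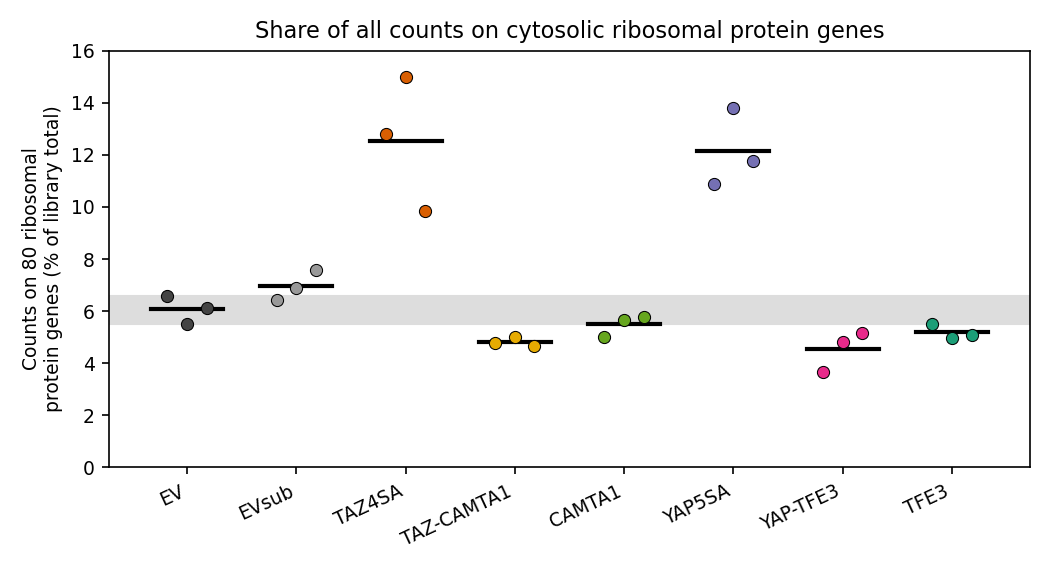
Counts on the 80 members as a percent of each library's total (vertical axis), by group (horizontal axis). Points are libraries, black lines are group means and the grey band spans the 3 EV libraries, from 5.48% to 6.60%; all TAZ4SA and YAP5SA libraries lie at 9.83% or above.

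Other parts of the libraries moved as well. Annotated processed copies of ribosomal protein genes held 0.356% ± 0.0151 (SD, n = 3) of counts in EV, 0.764% ± 0.154 in TAZ4SA and 0.801% ± 0.0790 in YAP5SA. For every 100 counts on members there were 5.66 to 6.81 on these copies in each of the 24 libraries, so that the ratio of copies to members varied little. Genes of the mitochondrial genome took 3.96% ± 0.152 in EV, 3.05% ± 0.124 in TAZ4SA, 2.15% ± 0.103 in YAP5SA and 5.26% ± 0.593 in TFE3. Their share was 3.04% ± 0.248 in EVsub, 3.89% ± 0.197 in TAZ-CAMTA1, 3.81% ± 0.339 in YAP-TFE3 and 3.75% ± 0.284 in CAMTA1. The part of these shifts in the members' values was not tested.

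In TAZ4SA against EV nearly the whole set was higher. By count, 78 of 80 members were called higher, against 31.1% of all 14361 genes, at an adjusted p under 0.05 in the edgeR quasi-likelihood test. By edgeR 0 were called lower, against 26.4% of all genes, with 0 also by DESeq2 and at an unadjusted p under 0.05. The members' median log2 fold change was 1.24, a 2.35-fold rise, against 0.05 for all genes, and it differed little between the large subunit (1.25) and the small subunit (1.19). They moved in a narrow band, with a standard deviation of 0.30 against 1.31 over all genes, and 55 of the 80 lay within 0.25 of their median. All genes here include those with few counts, and no spread was taken for genes as abundant as the members. Scaling by total counts alone shifted the median of all genes by −0.17 and split the calls over all genes into 3422 higher and 4749 lower, where the TMM scaling gave 4465 and 3788. Under that scaling the members still had 78 calls higher, and their median stood 1.14 above that of all genes.

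Rpl13a, a large subunit protein that can also leave the ribosome to silence chosen mRNAs, had the highest fold change of the members in TAZ4SA. Its level, in CPM, was 1047, 903 and 951 in EV, 3423, 5036 and 2318 in TAZ4SA and 4210, 5461 and 4607 in YAP5SA. In the fusion groups and TFE3 it was 765, 818 and 749 in TAZ-CAMTA1, 623, 749 and 789.7 in YAP-TFE3 and 885, 886 and 854 in TFE3, and below confluence 941, 1176 and 1164 in EVsub and 743, 939 and 907 in CAMTA1. All 6 libraries of the hyperactive proteins were above all others, and the lowest of them was TAZ4SA replicate 3. Its log2 fold change was 1.89 (SE 0.19, adjusted p = 4.62e-08) in TAZ4SA and 2.30 (SE 0.20, adjusted p = 1.03e-09) in YAP5SA by edgeR. A protein-coding readthrough gene, Gm45713, overlaps 29.4% of its exons on the same strand, with a mean of 37.1 counts against 35220 on Rpl13a, so that some of its reads could belong to that gene.

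Next after it in TAZ4SA came Rpl8, a protein of the large subunit core, at 1.64, and Rpl12, which sits at the base of the stalk, at 1.63. At the other end Rpl21 rose by 0.70 and Rpl10, which joins the large subunit late in its assembly, by 0.71. Of the 79 members without Rpl3l, which is not read, only Rpl24 was not called, at −0.17 with few counts. Leaving out any 1 library kept the count at 78, while the median moved between 0.97 without TAZ4SA replicate 2 and 1.45 without TAZ4SA replicate 3.

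YAP5SA against EV raised nearly the whole set as well, with the same 3 EV libraries, so the 2 comparisons are not independent. Here 78 of 80 members were called higher by edgeR, 77 of 79 without Rpl3l, against 36.3% of all genes, and 1 was called lower, Rpl24, against 34.9%. The median log2 fold change was 1.36, a 2.57-fold rise, against 0.01 for all genes, again near equal in the large (1.39) and small (1.30) subunit. Members spread more than in TAZ4SA, with a standard deviation of 0.53, and 42 lay within 0.25 of the median. Scaling by total counts alone shifted the median of all genes by −0.37 and gave 3565 genes higher and 6775 lower in place of 5208 and 5012. On that scale 70 members were still called higher and the members' median of 0.98 stood 1.34 above that of all genes. Without 1 library the count ran from 72 to 79.

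Several members stood apart from the rest in YAP5SA. Beyond Rpl13a, and Rpl3l with its few counts, the highest were Rps2 at 2.14 and Rpl8 at 2.07. Rps2, a small subunit protein near the entry of the mRNA channel, measured, in CPM, 81.3, 83.2 and 83.5 in EV and 355, 382 and 354 in YAP5SA, with 177, 344 and 176 in TAZ4SA. YAP5SA libraries were close to each other and all above the TAZ4SA libraries, but annotated copies of Rps2 held 6.57 counts for each count on the gene, so its own level is uncertain.

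Rpl21, a protein of the large subunit surface, had the smallest fold change among the members with many counts. It measured, in CPM, 374, 337 and 388 in EV and 399, 576 and 430.1 in YAP5SA, and 642, 726 and 420.4 in TAZ4SA. YAP5SA replicates 1 and 3 lay just above the EV libraries and replicate 2 well above them. In the edgeR test its log2 fold change was 0.35 (SE 0.16, adjusted p = 0.0504), which missed the threshold, and it was called without YAP5SA replicate 1 (0.46, adjusted p = 0.0236) or replicate 3 (0.41, adjusted p = 0.0464). On total counts the rise was absent, at −0.03 (adjusted p = 0.864).

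Rpl30, which binds kink-turn RNA, and Rpl23, a subunit-interface protein known to bind MDM2, followed. Rpl30 measured, in CPM, 159.9, 142 and 131 in EV, 350.1, 295 and 272 in TAZ4SA and 178, 287 and 167 in YAP5SA. Rpl23 measured, in CPM, 1148, 936 and 1019 in EV, 2375, 1864 and 1649 in TAZ4SA and 1331, 1962 and 1303 in YAP5SA. For both genes the YAP5SA group rested on replicate 2 for much of its rise, and every TAZ4SA library lay above YAP5SA replicates 1 and 3. Their log2 fold changes by edgeR in YAP5SA were 0.55 (SE 0.16, adjusted p = 0.00413) and 0.57 (SE 0.16, adjusted p = 0.00365), and without YAP5SA replicate 2 they were 0.26 (adjusted p = 0.0909) and 0.35 (adjusted p = 0.0543), no longer called. On total counts they were 0.16 and 0.18, also not called. TAZ4SA was not tested against YAP5SA.

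Cell type markers moved in the same groups as the members, and also in groups where few or no members were called. The summed level of the 10 fibroblast markers, in CPM, was 37273, 40242 and 40901 in EV, 23590, 28826 and 22548 in TAZ4SA and 30318, 35542 and 32040 in YAP5SA, so that every library of the hyperactive groups lay below every EV library. In the other confluent groups it was 45876, 41814 and 47475 in TAZ-CAMTA1, 57764, 45908 and 43818 in YAP-TFE3 and 35266, 34302 and 31175 in TFE3, and below confluence 25779, 39537 and 33810 in EVsub and 21297, 27463 and 30032 in CAMTA1. In TAZ4SA edgeR called 4 of these markers lower, Fn1 at −1.43, Pdgfra at −1.26, Pdgfrb at −1.47 and, lowest of all, S100a4, and Thy1 higher at 1.66. In YAP5SA the same 4 were lower, among them Fn1 at −1.11, Pdgfra at −2.43 and S100a4 at −1.67, and Thy1 at 2.36 and Vim at 1.19 were higher. Every TFE3 library also had a summed level below every EV library, with 0 of the 10 markers called. In EVsub against EV edgeR called Col3a1 lower at −1.28, Fn1 at −0.67 and Pdgfrb at −0.59, and Thy1 higher at 0.96. It called 3 higher and 1 lower in TAZ-CAMTA1, and 4 and 1 in YAP-TFE3.

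Markers of other cell types stayed scarce, but their summed levels were higher in the hyperactive groups, and the epithelial level in the fusion groups as well. The summed epithelial level, in CPM, was 0.338, 0.286 and 0.133 in EV, 0.893, 1.27 and 1.63 in TAZ4SA and 8.78, 7.5 and 9.06 in YAP5SA, and the endothelial level 2.79, 2.34 and 4.51 in EV, 12.1, 11.2 and 8.48 in TAZ4SA and 8.21, 7.45 and 8.17 in YAP5SA. For leukocytes it was 0.0422, 0.143 and 0.0442 in EV, 2.63, 0.674 and 0.923 in TAZ4SA and 1.13, 1.52 and 0.95 in YAP5SA. The endothelial level lay below every EV library in EVsub, at 0.41, 0.57 and 0.38, and in CAMTA1, at 0.433, 0.381 and 0.525. The other levels of these 3 marker types in EVsub, CAMTA1 and TFE3 overlapped with EV. By edgeR Kdr was higher by 6.91 in TAZ4SA and 6.33 in YAP5SA, over a mean of only 1.67 counts in EV, and Tek was lower in both. Kdr was also called higher in YAP-TFE3, at 3.44, and in TFE3, at 3.37, and Tek was called lower in EVsub, at −3.34. Other markers reached the limit on counts only through the groups where they were highest, so their fold changes are not read. Krt14 and Itgam had means of 3.67 and 1.00 counts outside TAZ4SA and YAP5SA, Cdh5 had 2.81 outside TAZ-CAMTA1, and Cdh1 had 3.44 outside the 2 fusion groups. In the fusion groups the epithelial level was 0.768, 0.885 and 1.2 in TAZ-CAMTA1 and 0.902, 0.971 and 0.722 in YAP-TFE3, above every EV library, while the endothelial level, 4.53, 4.94 and 4.27 in TAZ-CAMTA1 and 4.76, 2.78 and 3.18 in YAP-TFE3, and the leukocyte level, 0.162, 0.0931 and 0.0798 in TAZ-CAMTA1 and 0.201, 0.0669 and 0.0424 in YAP-TFE3, overlapped with EV. Cdh5 had a mean of 39.3 counts in TAZ-CAMTA1 and 6.67 in YAP-TFE3 against 0.333 in EV, and the Cdh1 mean was highest in these 2 groups. Since both reached the limit only through groups where they were highest, these counts are a description only. The part of these shifts in the members' values was not tested either.

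**Figure D2:**
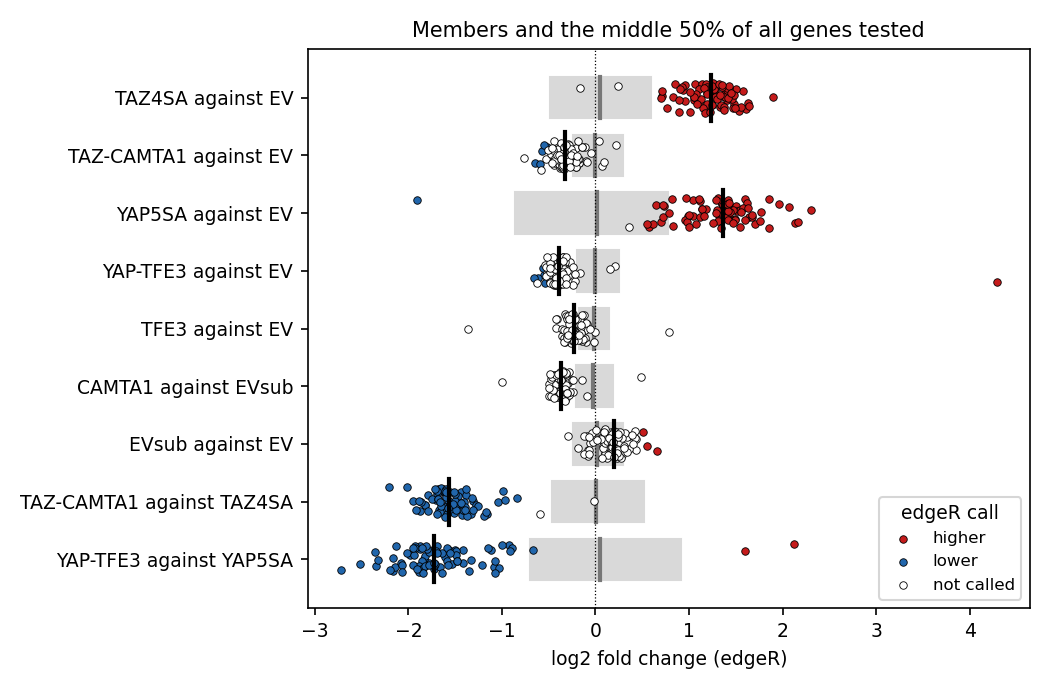
Log2 fold change by edgeR (horizontal axis) of each of the 80 members in the 9 comparisons (vertical axis), with points coloured by call. Black bars are the members' medians, grey boxes the middle 50% of all 14361 genes and grey lines their medians; the members' median is 1.24 in TAZ4SA against EV and −1.73 in YAP-TFE3 against YAP5SA.

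TAZ-CAMTA1 against EV showed no rise of the set. By edgeR 0 members were called higher, also 0 at an unadjusted p under 0.05 and 0 by DESeq2, while 12.5% of all genes were called higher. The members' median log2 fold change was −0.33 against 0.00 for all genes, and 76 of the 80 had an estimate below 0. Those called lower numbered 5, against 8.98% of all genes, a share near that background in this fit. At an unadjusted p under 0.05 the count was 25, against 15.5% of all genes. With only the 2 groups in the fit 46 members were called lower, beside 1995 of all genes, and on total counts 15, beside 1399. They were Rpl39 at −0.65 (SE 0.21, adjusted p = 0.0285), Rps29 at −0.59, Rpl37a at −0.57, Rps28 at −0.55 and Rps4x at −0.51 in the edgeR fit, of which Rpl37a and Rps28 are named because they were called. Rpl24 had the lowest estimate, −0.77, and, Rpl3l aside, Rps2 at 0.09 and Rpl39l at 0.07 the highest, none called. The number of calls depended on single libraries: it was 1 without TAZ-CAMTA1 replicate 1, 0 without replicate 2 or replicate 3, 0 without EV replicate 1 or EV replicate 3, and 9 without EV replicate 2. DESeq2 called 11 lower, against 11.2% of all genes. Rps29 lost its edgeR call without any of those 5 libraries (−0.60 without TAZ-CAMTA1 replicate 1, −0.63 without replicate 2, −0.55 without replicate 3, −0.55 without EV replicate 1 and −0.54 without EV replicate 3), and so did Rps4x (−0.52, −0.55, −0.48, −0.45 and −0.52 in the same order).

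Rpl39, a small basic protein that lines the tunnel through which the new peptide leaves, had the largest fold change of those called. It measured, in CPM, 614, 509.9 and 521 in EV and 383, 346 and 319 in TAZ-CAMTA1. The TAZ-CAMTA1 libraries all lay below the EV libraries. In YAP-TFE3 it measured 315, 369 and 449, in TFE3 525, 444 and 563 and in the hyperactive groups 1035, 1587 and 794 in TAZ4SA and 913, 1458 and 1022 in YAP5SA. Its call in TAZ-CAMTA1 was lost without EV replicate 1 (−0.56, edgeR adjusted p = 0.118), EV replicate 3 (−0.69, 0.0567), TAZ-CAMTA1 replicate 2 (−0.64, 0.0852) or replicate 3 (−0.59, 0.112).

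YAP-TFE3 against EV gave a shift of similar size. The members' median was −0.39 against 0.00 for all genes, and 77 of 80 estimates were below 0. By edgeR 5 members were called lower, against 4.74% of all genes, a share near that background in this fit, and the only call higher, against 10.6%, was that of Rpl3l, which is not read. The 5 were Rpl36 at −0.66, Rps28, a small subunit protein near the mRNA exit, at −0.61, Rps7 at −0.56, Rps9 at −0.55 and Rpl6l at −0.54, of which Rps7, Rps9 and Rpl6l are named because they were called. At an unadjusted p under 0.05 the count lower was 45, against 11.2% of all genes. DESeq2 called 18 lower, beside 1002 of all genes, and edgeR on total counts called 27, beside 786. Without YAP-TFE3 replicate 1, the library with the lowest share of counts on members, edgeR called 0 lower, without replicate 2 it called 2, without replicate 3 it called 15, and without EV replicate 1 or EV replicate 3 it called 0 and 1. Rpl36 kept no call without YAP-TFE3 replicate 1 (−0.52), YAP-TFE3 replicate 2 (−0.70), EV replicate 1 (−0.54) or EV replicate 3 (−0.66).

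Rps28 measured, in CPM, 556, 465 and 547 in EV and 298, 301 and 425 in YAP-TFE3, and 359, 374 and 341 in TAZ-CAMTA1. All 6 fusion libraries lay below the EV libraries, with YAP-TFE3 replicate 3 the nearest. It was 1059, 1227 and 619 in TAZ4SA, 1084, 1327 and 969 in YAP5SA and 505, 428 and 428 in TFE3. The call in YAP-TFE3, at −0.61 (SE 0.19, adjusted p = 0.029) by edgeR, was lost without EV replicate 1 (−0.57, adjusted p = 0.101), EV replicate 3 (−0.58, 0.0965), YAP-TFE3 replicate 1 (−0.55, 0.127) or replicate 2 (−0.53, 0.119).

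The difference between each fusion protein and its hyperactive counterpart was tested directly. In TAZ-CAMTA1 against TAZ4SA 78 of 80 members were called lower by edgeR, against 28.1% of all genes, and 0 higher, against 26.6%, with 0 higher also at an unadjusted p under 0.05 and by DESeq2. The median log2 fold change was −1.57 against 0.00 for all genes. Total counts as the scale shifted the median of all genes by 0.17 and gave 4818 genes higher and 2948 lower in place of 3813 and 4041, with the members at 78 lower. Rpl13a at −2.21, Rpl28 at −2.02 and Rpl12 at −1.95 lay lowest, and, Rpl3l aside, only Rpl24 at −0.60, with few counts, was not called. Least lowered among those called was Rpl39l at −0.84.

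In YAP-TFE3 against YAP5SA 78 members were called lower, against 34.5% of all genes, and of the 79 without Rpl3l 1 was higher, Rpl24 at 1.60, against 36.4%. The median was −1.73 against 0.05 for all genes. Scaling to total counts shifted the median of all genes by 0.36 and gave 7064 genes higher and 3387 lower in place of 5230 and 4954. The members then had a median of −1.36, which was −1.77 relative to all genes. Rpl13a at −2.72, Rpl8 at −2.52 and Rps2 at −2.35 lay lowest. Least lowered among members with many counts were Rpl21 at −0.66, Rpl30 at −0.89, Rpl39l at −0.91 and Rpl10 at −0.92. These 2 comparisons reuse the TAZ4SA and YAP5SA libraries of the comparisons with EV.

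Full-length TFE3 left the members with no call. TFE3 against EV had 0 members higher, against 2.35% of all genes, and 0 lower, against 1.02%, by edgeR and also by DESeq2. At an unadjusted p under 0.05 the counts were 0 higher, against 7.23% of all genes, and 1 lower, against 7.08%, by edgeR. The median was −0.23 against −0.02 for all genes, and 79 of the 80 estimates were below 0. Among the lowest were Rpl24, with few counts, at −1.36 and Rpl28 at −0.42. Highest, Rpl3l aside, were Rps27l at −0.01 and Rpl35 at −0.01, and none of these was called.

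CAMTA1 against EVsub sets full-length CAMTA1 beside empty vector cells of the same density. Again 0 members were called higher, against 1.29% of all genes, and 0 lower, against 0.891%, by edgeR and by DESeq2. At an unadjusted p under 0.05, however, 35 members were lower, against 10.2% of all genes, and 0 higher, against 8.04%, by edgeR. The median was −0.37 against −0.03 for all genes, a shift of the same order as in the fusion groups, and 79 of 80 estimates were below 0. Lowest, Rpl3l aside, were Rps27 at −0.50 and Rpl17, near the peptide exit, at −0.49, and highest were Rpl24 at 0.49, Rps27l at −0.09 and Rpl30 at −0.14, none called. Whether these groups differ from the fusion groups was not tested.

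EVsub against EV sets sub-confluent beside confluent empty vector cells. By edgeR 3 members were called higher, against 12.5% of all genes, a smaller share, and 0 lower, against 9.59%, with 0 lower also at an unadjusted p under 0.05 and by DESeq2. The median was 0.19 against 0.02 for all genes. The summed endothelial level was lower in EVsub and some fibroblast markers moved, as given above. Of the 3 endothelial markers tested only Tek was called, and 2 were not. Lowest, and not called, were Rpl24 at −0.29 and Rpl39 at −0.19. The 3 called by edgeR were Rps2 at 0.65 (SE 0.18, adjusted p = 0.0102), Rpsa at 0.56 (SE 0.19, adjusted p = 0.042) and Rps27l at 0.51 (SE 0.15, adjusted p = 0.018). The count fell to 1 without EV replicate 1 or EV replicate 3 and to 0 without EVsub replicate 2, and Rpsa lost its call without any 1 of the 6 libraries (log2 fold change from 0.50 without EV replicate 2 to 0.62 without EVsub replicate 1). Rps2 lost it without EVsub replicate 2 (0.57), and Rps27l without EVsub replicate 2 (0.37), EV replicate 1 (0.48) or EV replicate 3 (0.43).

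**Figure D3:**
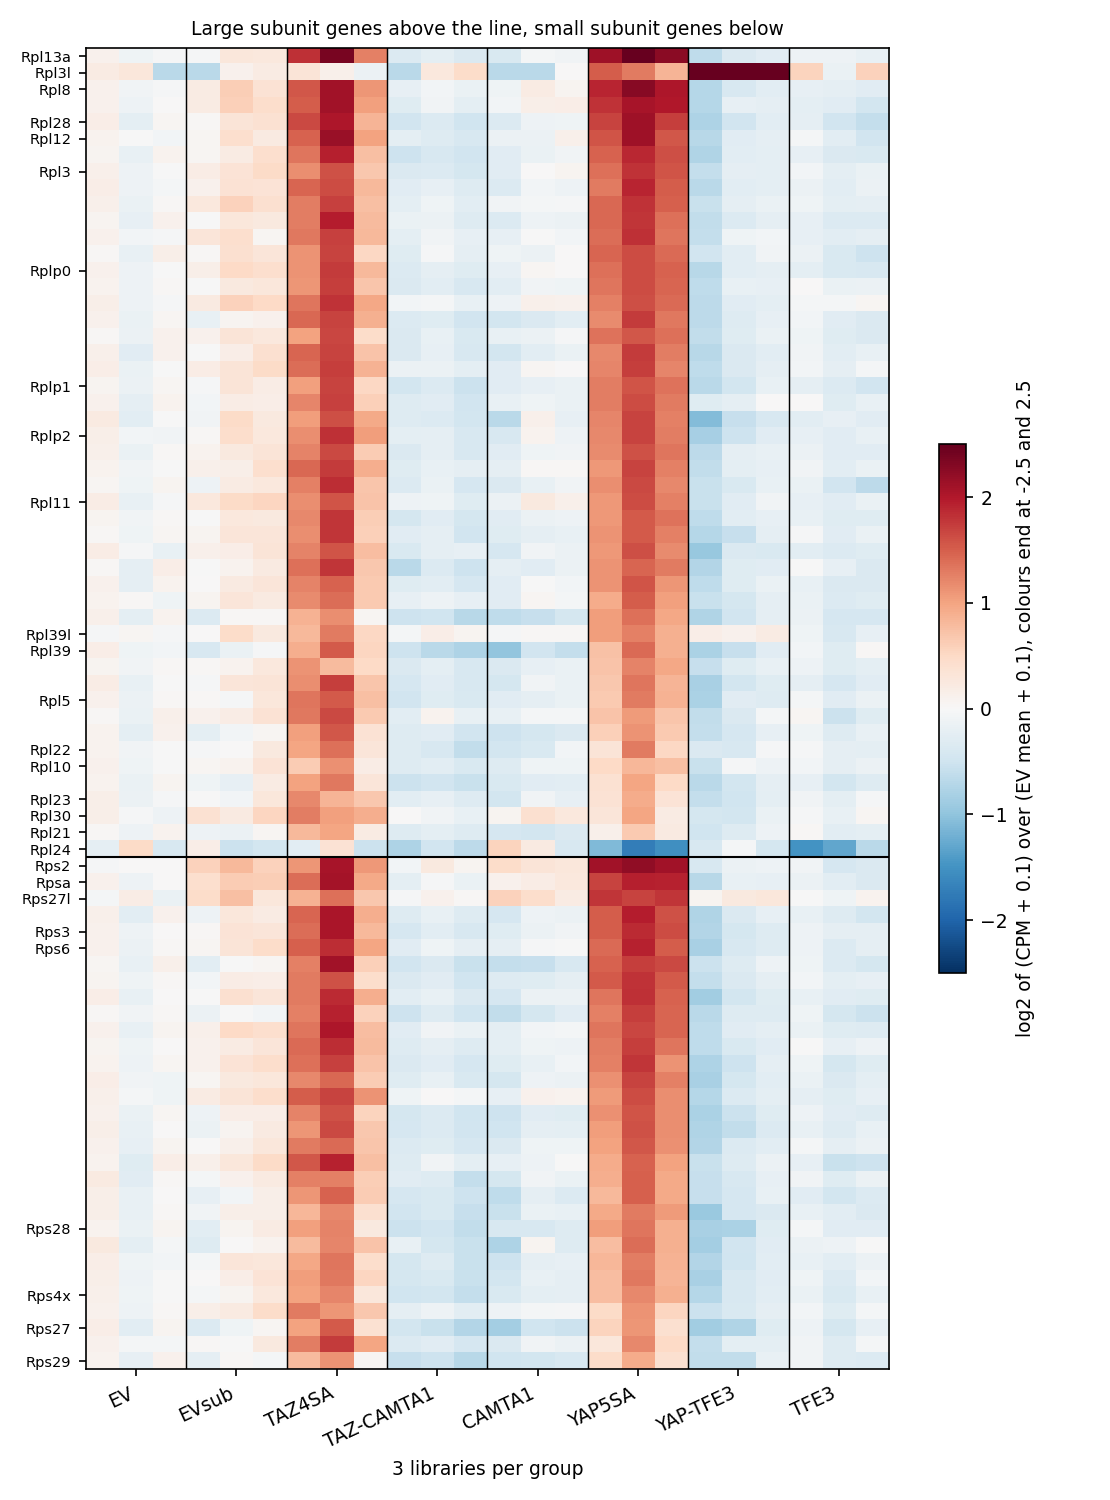
Level of each of the 80 members (vertical axis) in the 24 libraries (horizontal axis, 3 per group) as log2 of CPM plus 0.1 over the EV mean plus 0.1. Red is above and blue below the EV mean, and 28 of the genes described in the text carry their names; the TAZ4SA and YAP5SA columns are red for every member other than Rpl24, apart from Rpl3l in TAZ4SA replicate 3.

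The stalk proteins rose together. Rplp0, the base of the stalk that recruits the translation factors, was the most abundant member in all 24 libraries by CPM. It measured 3212, 2719 and 2960 in EV, 6478, 9973 and 5172 in TAZ4SA and 7714, 9218 and 8221 in YAP5SA. In the other confluent groups it was 2338, 2541 and 2387 in TAZ-CAMTA1, 1825, 2465 and 2541 in YAP-TFE3 and 2509, 2280 and 2255 in TFE3, and below confluence 3292, 4159 and 3976 in EVsub and 2570, 3067 and 2989 in CAMTA1. The hyperactive groups lay above all others, the 3 other confluent groups below EV, and EVsub above EV. By edgeR the log2 fold change of Rplp0 was 1.28 (SE 0.18, adjusted p = 4.80e-06) in TAZ4SA and 1.50 (SE 0.19, adjusted p = 2.68e-07) in YAP5SA. Rplp1 and Rplp2, the acidic proteins that form its arms, rose by 1.15 and 1.39 in TAZ4SA and by 1.41 and 1.40 in YAP5SA.

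Rps6, whose tail is phosphorylated by the S6 kinases downstream of mTOR and whose start carries the CTCTTT shown above, measured, in CPM, 2304, 1954 and 2189 in EV, 6069, 7673 and 4244 in TAZ4SA and 5732, 8207 and 6159 in YAP5SA. In the fusion groups it measured 1758, 1984 and 1849 in TAZ-CAMTA1 and 1220, 1629 and 1715 in YAP-TFE3. Both hyperactive groups lay wholly above EV, YAP-TFE3 lay wholly below it, and TAZ-CAMTA1 overlapped with it through replicate 2. The log2 fold change by edgeR was 1.48 (SE 0.19, adjusted p = 8.55e-07) in TAZ4SA, 1.64 (SE 0.19, adjusted p = 8.58e-08) in YAP5SA and −0.50 (SE 0.18, adjusted p = 0.0712) in YAP-TFE3, the last not called, though DESeq2 called it (−0.52, adjusted p = 0.0259) and so did edgeR on total counts (−0.51, adjusted p = 0.0253).

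Rps3, which lies at the mRNA entry site, and Rpsa, at the exit site, rose by 1.51 and 1.55 in TAZ4SA and by 1.68 and 1.85 in YAP5SA. Rpsa measured, in CPM, 1895, 1613 and 1773 in EV and 2350, 2728 and 2681 in EVsub, so the 2 empty vector groups did not overlap, and 4643, 7418 and 3411 in TAZ4SA and 5667, 6767 and 6659 in YAP5SA. Rpl5 and Rpl11, which carry 5S rRNA into the large subunit and, when free, hold back MDM2, rose by 1.25 and 1.20 in TAZ4SA. In YAP5SA they rose by 0.96 and 1.34. By edgeR neither was called in TAZ-CAMTA1, at −0.38 and −0.18, or in YAP-TFE3, at −0.45 and −0.30, though in YAP-TFE3 Rpl5 was called by DESeq2 (−0.47, adjusted p = 0.0473) and by edgeR on total counts (−0.46, adjusted p = 0.0480).

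Some paralog pairs parted in level, though no difference within a pair was tested. Rps27 and Rps27l encode near-identical zinc-binding proteins of the small subunit, and Rps27l is a known p53 target. In EV their levels per length were 1466 and 71.7 CPM per kilobase. Rps27 measured, in CPM, 564, 419.5 and 534 in EV, 1020, 1457 and 661 in TAZ4SA and 741, 1093 and 671 in YAP5SA. Rps27l measured, in CPM, 34.6, 40.9 and 31.9 in EV, 65.5, 93.7 and 57.1 in TAZ4SA and 124, 116 and 124 in YAP5SA. Rps27 was higher in TAZ4SA than EV and overlapped between TAZ4SA and YAP5SA, whereas the YAP5SA libraries of Rps27l were tightly grouped and above every TAZ4SA library. In YAP5SA the log2 fold change by edgeR was 0.72 (SE 0.22, adjusted p = 0.00619) for Rps27 and 1.76 (SE 0.15, adjusted p = 1.30e-09) for Rps27l. The edgeR call of Rps27 was lost on total counts (0.34, adjusted p = 0.115) and without YAP5SA replicate 2 (0.48, adjusted p = 0.0685), and the difference between the paralogs was not tested.

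In the fusion groups Rps27 measured, in CPM, 365, 343 and 306 in TAZ-CAMTA1 and 275, 299 and 409 in YAP-TFE3, all below EV, and Rps27l measured 35.1, 38.6 and 36.6 in TAZ-CAMTA1 and 37.6, 42.3 and 43.8 in YAP-TFE3, which overlapped with EV. By edgeR Rps27 was not called in either, at −0.58 (SE 0.22, adjusted p = 0.0673) in TAZ-CAMTA1 and −0.62 (SE 0.22, adjusted p = 0.0612) in YAP-TFE3, though it was by DESeq2 (−0.60, adjusted p = 0.0361, and −0.64, adjusted p = 0.0292), on total counts (−0.59 and −0.64) and without EV replicate 2 (−0.70, adjusted p = 0.0431, and −0.74, adjusted p = 0.0422) and, in YAP-TFE3, without YAP-TFE3 replicate 3 (−0.82, adjusted p = 0.0265). Rps27l stood at 0.04 and 0.21, not called.

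Rpl39l, the paralog of Rpl39 known for its expression in the testis, was measured at 134 CPM per kilobase in EV against 896 for Rpl39. It measured, in CPM, 106, 111 and 105 in EV, 188, 265 and 153 in TAZ4SA and 222, 258 and 198 in YAP5SA. In the fusion groups it measured 104, 121 and 113 in TAZ-CAMTA1 and 121, 116 and 124 in YAP-TFE3. The hyperactive groups lay above EV, and the fusion groups lay at or slightly above it, whereas Rpl39 lay below EV in both. By edgeR Rpl39l rose by 0.91 (SE 0.15, adjusted p = 2.26e-05) in TAZ4SA and 1.07 (SE 0.15, adjusted p = 1.37e-06) in YAP5SA. It stood at 0.07 and 0.16 in the fusion groups, not called.

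Rpl22l1, whose name falls outside the symbol rule, is the paralog of Rpl22, an RNA-binding protein of the large subunit. Rpl22 measured, in CPM, 201, 177 and 189 in EV, 375, 494 and 235 in TAZ4SA and 238, 468 and 271 in YAP5SA. Rpl22l1 measured, in CPM, 176, 172 and 173 in EV, 127, 234 and 192 in TAZ4SA and 77.6, 120.0 and 92.5 in YAP5SA. The pair parted in YAP5SA, where every Rpl22 library lay above EV and every Rpl22l1 library lay below it. By edgeR Rpl22 rose by 0.78 (SE 0.22, adjusted p = 0.00322) there, a call lost on total counts (0.39, adjusted p = 0.0684) and without YAP5SA replicate 2 (0.43, adjusted p = 0.0680), and Rpl22l1 was lower, at −0.84 (SE 0.17, adjusted p = 1.10e-04).

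In the fusion groups Rpl22l1 measured, in CPM, 115, 115 and 101 in TAZ-CAMTA1 and 87.3, 96.4 and 119.6 in YAP-TFE3, all below EV. Its log2 fold changes by edgeR were −0.66 (SE 0.17, adjusted p = 0.0061) in TAZ-CAMTA1 and −0.78 (SE 0.17, adjusted p = 0.00199) in YAP-TFE3, both called, while Rpl22 stood at −0.44 and −0.25, not called. TAZ4SA libraries of Rpl22l1 scattered from below to above EV, at 0.08 (SE 0.16, adjusted p = 0.682) by edgeR. Among the other paralogs outside the rule, Rpl36al rose by 0.72 in TAZ4SA and 0.92 in YAP5SA, beside 0.94 and 0.65 for Rpl36a, whose call in YAP5SA was lost on total counts (0.26) and without YAP5SA replicate 2 (0.44). Rpl7 rose by 0.82 and 0.99, whereas Rpl7l1 fell, at −0.37 and −0.49, and its call in TAZ4SA was lost without TAZ4SA replicate 2 (−0.24, edgeR adjusted p = 0.0982).

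**Figure D4:**
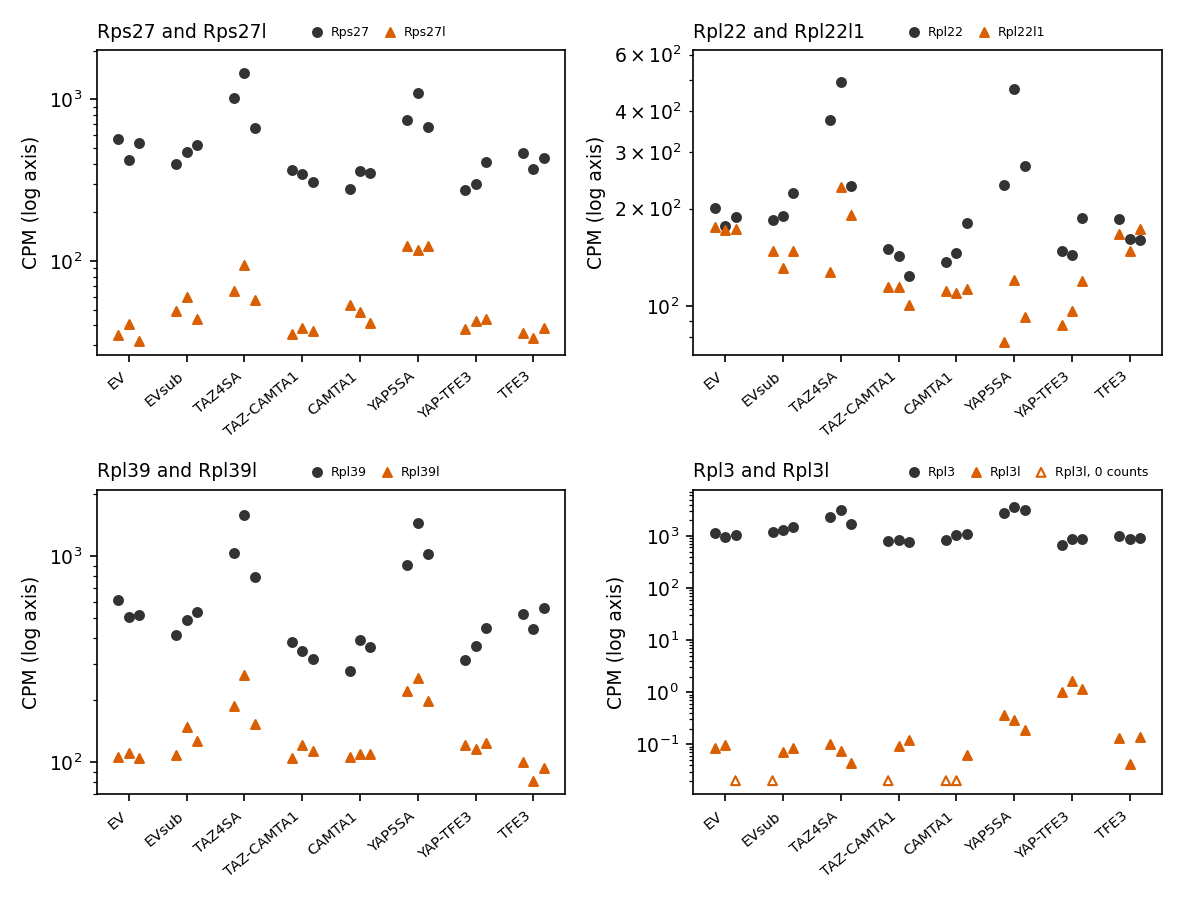
Level in CPM (vertical axes, log scale) of 4 paralog pairs in the 24 libraries, by group (horizontal axes), with circles for the founding member and triangles for the paralog. Open triangles mark libraries with 0 counts of Rpl3l; Rpl22l1 is at 77.6 to 120.0 CPM in YAP5SA against 172 to 176 in EV.

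Rpl3l, the muscle paralog of Rpl3, was at the floor of detection in most groups and had most of its counts in 1 of them. Its raw counts were 2, 2 and 0 in EV, 0, 2 and 2 in EVsub, 2, 1 and 1 in TAZ4SA, and 0, 2 and 3 in TAZ-CAMTA1. They were 0, 0 and 2 in CAMTA1, 3, 1 and 4 in TFE3, 7, 6 and 3 in YAP5SA, and 20, 48 and 27 in YAP-TFE3. Every YAP-TFE3 library was above every library of the other groups, and YAP5SA came next. In CPM, YAP-TFE3 stood at 1.00, 1.61 and 1.15, while Rpl3, which helps shape the peptidyl transferase centre, measured 684, 892 and 873 in YAP-TFE3 and 1135, 947 and 1038 in EV. Since Rpl3l reached the limit on counts only through YAP-TFE3, no fold change or p-value of it is given in the text, and its calls are not read.

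Rpl24 is a member whose values cannot be read with confidence. It lies at chr16:55966275-55971435 on build GRCm38, and 47.0% of its exon bases overlap the transcript Gm28037 on the same strand, to which 0.0 counts were assigned on average. Its raw counts were 11, 17 and 9 in EV, 9, 10 and 8 in TAZ4SA, 4, 2 and 2 in YAP5SA, 8, 16 and 9 in YAP-TFE3, and 3, 4 and 9 in TFE3. YAP5SA lay below EV in all libraries, with a log2 fold change of −1.91 (SE 0.50, adjusted p = 0.00173) by edgeR, against the direction of the other members. The methods of the study name both a genome aligner and a transcript quantifier, and which of them gave the deposited whole-number counts is not stated, so the way reads were shared between these overlapping genes is uncertain.

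Processed copies raise the same question for other members. Annotated copies held 10.2 counts for each count on Rpl34, 6.57 on Rps2, 0.496 on Rpl3, 0.413 on Rps26 and 0.375 on Rpl14, so the levels of these genes are uncertain. Of the 112 copies tested, 4 of which had a mean under 5 counts outside their 2 highest groups, 92 were called higher and 1 lower in TAZ4SA against EV, with a median log2 fold change of 1.18, where 31.1% and 26.4% of all genes were called. In YAP5SA against EV 88 were higher and 1 lower, with a median of 1.22, where 36.3% and 34.9% of all genes were. For the 17 members whose copies held at least 0.1 of their count and for the other 63 the medians were 1.27 and 1.23 in TAZ4SA, 1.41 and 1.36 in YAP5SA, −0.32 and −0.33 in TAZ-CAMTA1, and −0.38 and −0.40 in YAP-TFE3, and the difference was not tested. All 5 members called lower in each fusion group were among the 63, which make up most of the 80 members. In YAP-TFE3 1 of the 5 was Rpl6l, itself annotated as a processed pseudogene.

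Other short genes and other abundant genes moved less. Among 344 other protein-coding genes with principal transcripts under 800 bases, the median log2 fold change was 0.13 in TAZ4SA and 0.28 in YAP5SA. It was 0.14 and 0.30 from 800 to under 1500 bases, and 0.11 and 0.20 from 1500 to under 3000. From 3000 bases on it was −0.04 and −0.20, so the medians were lowest for the longest transcripts. Among the 500 most abundant other genes it was 0.03 and 0.32. All of these lay well below the members' medians of 1.24 and 1.36.

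Among ribosomal protein genes and paralogs with other symbols, Fau and Rps3a1 were higher in both hyperactive groups, unlike Rpl22l1 and Rpl7l1 described above. Fau, a ubiquitin-like fusion to Rps30, measured, in CPM, 467, 392 and 478 in EV, 1082, 1583 and 739 in TAZ4SA and 1217, 1486 and 1270 in YAP5SA, with no overlap. By edgeR it rose by 1.35 (SE 0.19, adjusted p = 3.10e-06) in TAZ4SA and 1.57 (SE 0.19, adjusted p = 1.74e-07) in YAP5SA. Rps3a1, added to these relatives after the data were seen, rose by 0.72 and 0.76, and was lower in TAZ-CAMTA1 at −0.46 and in YAP-TFE3 at −0.47.

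Among 23 translation factors and other genes with TOP mRNAs, 20 were called higher in TAZ4SA, against 31.1% of all genes, and 21 in YAP5SA, against 36.3%, with 0 lower in either by edgeR or DESeq2 and also 0 at an unadjusted p under 0.05. Their medians were 0.92 and 1.24. Eef2, the factor that moves the ribosome along the mRNA, measured, in CPM, 6639, 5888 and 6078 in EV, 20728, 33457 and 14472 in TAZ4SA and 26184, 33595 and 28564 in YAP5SA. It rose most of the list, by 1.88 (SE 0.23, adjusted p = 4.83e-07) in TAZ4SA and 2.25 (SE 0.23, adjusted p = 1.72e-08) in YAP5SA by edgeR, with Rack1, a scaffold on the small subunit, next at 1.63 and 1.73. The list's median was −0.20 in TAZ-CAMTA1, with 1 higher and 2 lower, against 12.5% and 8.98% of all genes. It was −0.24 in YAP-TFE3, with 0 called by edgeR, against 10.6% and 4.74%. At an unadjusted p under 0.05 it had 1 higher and 6 lower there, against 15.9% and 11.2%, and by DESeq2 0 higher and 5 lower, against 11.1% and 6.98%.

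Ribosome assembly factors and RNA polymerase I genes, 67 in all, had smaller medians in the same direction. In TAZ4SA 37 were called higher and 2 lower, against 31.1% and 26.4% of all genes, with a median of 0.42. In YAP5SA 43 and 4 were, against 36.3% and 34.9%, with a median of 0.60. Total counts gave 28 and 3 with a median of 0.27 in TAZ4SA, and 30 and 16 with a median of 0.23 in YAP5SA. Noc2l, of the family of nucleolar proteins that escort the early large subunit, rose by 1.56 and 2.05. Utp4, of the complex that processes the early small subunit, rose by 1.29 and 1.92, and Sbds, which helps release eIF6 from the large subunit, by 1.29 and 1.64. Ubtf, the factor that opens ribosomal DNA for RNA polymerase I, fell instead, at −0.80 and −0.90, as did the helicase gene Ddx10, at −0.61 and −1.07. TAZ-CAMTA1 had 7 of the 67 higher, near the 12.5% of all genes, and 0 lower by edgeR, with 1 lower at an unadjusted p under 0.05 and 0 by DESeq2, with Nop58, a core protein of snoRNA particles, at 1.10 (SE 0.26, adjusted p = 0.00332). The list's median was 0.16 there.

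YAP-TFE3 had 2 assembly genes higher and 6 lower, against 10.6% and 4.74% of all genes, with a median of −0.16, and DESeq2 called 10 lower, against 6.98%. In EVsub 26 were higher, against 12.5% of all genes, and 0 lower, against 9.59%, by edgeR and by DESeq2, with 0 lower also at an unadjusted p under 0.05 by edgeR. In the same comparison 27 of 76 mitochondrial ribosomal protein genes and 8 of 23 genes of the TOP list were higher by edgeR, and 0 lower, also by DESeq2, with 1 and 0 lower at an unadjusted p under 0.05. The medians were 0.34 for assembly genes, 0.26 for mitochondrial ribosomal protein genes, 0.28 for the TOP list and, with 3 of 80 called, 0.19 for the members. The difference between the lists was not tested.

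Mitochondrial ribosomal proteins, built into a separate ribosome, were called in both directions. Of 76 tested, 33 were higher and 7 lower in TAZ4SA, against 31.1% and 26.4% of all genes, with a median of 0.27. In YAP5SA 49 and 9 were, against 36.3% and 34.9%, with a median of 0.61. On total counts, which shift the median of all genes downward as given above, these became 25 and 13 with a median of 0.09 in TAZ4SA, and 36 and 17 with a median of 0.23 in YAP5SA. The highest was Mrps31 at 1.29 in TAZ4SA and Mrps18b at 2.03 in YAP5SA, and Mrps25 was lowered in both, at −0.68 and −1.46. In TAZ-CAMTA1 4 were higher and 2 lower, against 12.5% and 8.98% of all genes. In YAP-TFE3 2 were lower, against 4.74%, and 0 higher, against 10.6%, by edgeR, with 1 higher at an unadjusted p under 0.05, against 15.9%, and 0 by DESeq2.

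MYC and mTOR pathway genes did not move as a block. In TAZ4SA 13 of 28 were higher and 9 lower, against 31.1% and 26.4% of all genes, with a median of 0.09. In YAP5SA 11 and 13 were, against 36.3% and 34.9%, with a median of −0.13. Total counts gave 11 and 12 with a median of −0.09 in TAZ4SA, and 8 and 15 with a median of −0.50 in YAP5SA. Ddit4, an inhibitor of mTOR complex signalling, rose by 2.35 and 1.73, and the MYC relatives parted, with Mycl at 4.17 and 2.43 and Mycn at −2.04 and −2.49. Myc itself, a known activator of ribosomal protein genes, measured, in CPM, 43.1, 57.7 and 52.7 in EV, 183, 212 and 230.4 in TAZ4SA and 134, 134 and 145 in YAP5SA. In TAZ-CAMTA1 it was 65.8, 86.1 and 94.7, in YAP-TFE3 32.6, 47 and 40.9 and in EVsub 109, 117 and 79.3. The hyperactive groups, TAZ-CAMTA1 and EVsub all lay above EV, and YAP-TFE3 overlapped with EV. By edgeR its log2 fold change was 2.03 (SE 0.16, adjusted p = 9.53e-10) in TAZ4SA, 1.43 (SE 0.16, adjusted p = 3.92e-08) in YAP5SA and 0.68 (SE 0.15, adjusted p = 0.00247) in TAZ-CAMTA1. It was 0.99 (SE 0.15, adjusted p = 1.13e-04) in EVsub and −0.35 (SE 0.15, adjusted p = 0.145) in YAP-TFE3 by edgeR, the last not called. In TFE3 it measured 34.4, 32.6 and 30.1 and was called lower at −0.66 (SE 0.15, adjusted p = 0.0187), a call lost without TFE3 replicate 2 or 3 or EV replicate 2 or 3. A raised Myc level thus stood beside a higher set of members in TAZ4SA and YAP5SA, beside a members' median of 0.19 with 3 of 80 called in EVsub, and beside no rise in TAZ-CAMTA1, and a lowered one in TFE3 beside members with a median of −0.23 and 0 calls. Its part in the members' levels was not tested.

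**Figure D5:**
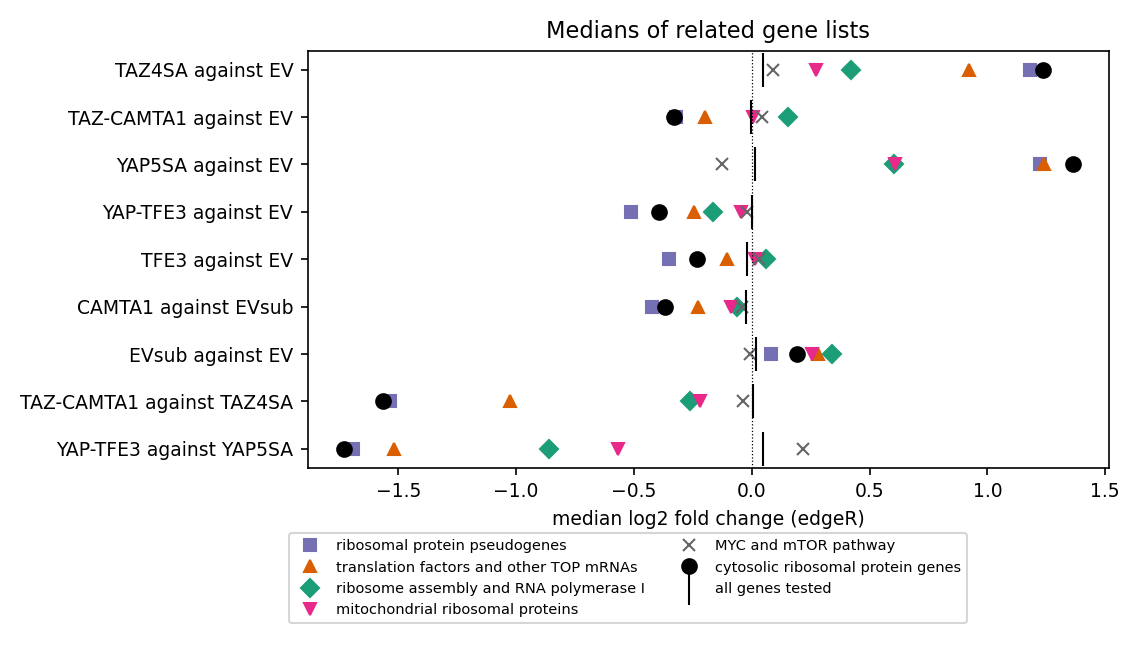
Median log2 fold change by edgeR (horizontal axis) of the 80 members and of 5 related lists in the 9 comparisons (vertical axis), with vertical ticks for all 14361 genes. In TAZ4SA against EV the medians run from 0.09 for MYC and mTOR pathway genes to 1.24 for the members.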

How the data were processed

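The series holds 24 libraries of NIH 3T3 cells in 8 groups of 3. The authors deposited raw counts of each library per Ensembl gene identifier, made from poly(A) stranded paired-end reads. The methods of the study name bcbio-nextgen, Hisat2 on mm10, and also Salmon with tximport, and which route gave these whole-number counts was not stated. Of the identifiers, 37693 matched GENCODE M21 and 1324 did not, with 0.221% of all counts. Group labels came from the titles, since the description of YAP-TFE3 replicate 3 repeats that of replicate 2.

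All 24 libraries entered 1 quasi-likelihood fit in edgeR 4.0.16 (limma 3.58.1, R 4.3.3) with TMM factors, over the 14361 genes whose mean count reached 5. P-values were adjusted by the Benjamini-Hochberg method over these genes in each of 9 comparisons, and a gene was called at an adjusted p under 0.05. Fold changes are log2 values with standard errors (SE). CPM used TMM-corrected library sizes. Library totals had a lowest value of 16471181 and a highest of 30132586 counts, and 95% Wilson intervals were taken on shares. Tables and plots used Python 3.11.15, pandas 2.3.3, numpy 2.4.6, scipy 1.17.1 and matplotlib 3.10.9. The pipeline was tested on simulated data for TAZ4SA against EV. Of 200 genes given a log2 change of 0.5, 1 or 2, it recovered 10%, 85% and 100%, with 2, 12 and 7 false calls. Most single-gene changes of 0.5 thus went uncalled in that test.

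Alternatives were DESeq2 1.42.0, its size factors in edgeR, total counts only, no filter, a replicate block, only the 2 groups compared, a log2 fold change of at least 0.5, TMM factors without the members (added after the data were seen), and fits that dropped 1 library at a time.

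Some results on items withheld for evaluation are not reported here. Named genes were taken from the 3 highest and 3 lowest members of each comparison, members 0.75 or more from the members' median, paralog pairs, members with known roles, and from each related list the 2 highest and 2 lowest genes called. Members and lists were chosen with earlier results of these data known. Related lists were ribosome assembly, translation factors with TOP mRNAs, mitochondrial ribosomal proteins, MYC and mTOR pathway genes, annotated processed copies, and other ribosomal protein genes and paralogs. Markers of fibroblasts, epithelial cells, leukocytes and endothelial cells were also read, and 1 epithelial and 1 leukocyte marker had 0 counts throughout.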

Additional observations from a re-analysis of the deposited data

Results flagged for a closer look

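The share of counts on the members differed between groups in opposite directions around EV. Every TAZ4SA library lay above and every TAZ-CAMTA1 library below every EV library, and the group means differed by 7.73 percentage points. The same held for YAP5SA and YAP-TFE3, whose means differed by 7.62 percentage points. The low side was not confined to the fusions. TFE3 had a mean of 5.19% against 6.06% in EV, with overlap between libraries. CAMTA1 had 5.49% against 6.95% in EVsub, without overlap. The differences in these shares were not tested.

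Annotated processed copies with -ps in their names enter no comparison of the members, unlike Rpl6l, a member annotated as a processed pseudogene. These copies held a mean of 0.764% of counts in TAZ4SA and 0.801% in YAP5SA. This signal lies outside the genes chosen, and the difference from the other groups was not tested as a share.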

How the results depend on the processing

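No median of the members changed sign under any alternative. Of 332 gene and comparison pairs chosen by the rules for named genes, no call changed direction by DESeq2, with RLE size factors, on total counts, with a replicate block or without 1 library. Estimates called in neither setting did change sign, 36 values in 15 pairs, among them Rpl21 in YAP5SA against EV (0.35 and, on total counts, −0.03) and Rpl22l1 in TAZ4SA against EV (0.08 and, on total counts, −0.11). The other alternatives were not read gene by gene, and some genes and comparisons in the text, such as the markers, were outside these pairs. Medians near 0 of related lists did change sign: that of MYC and mTOR pathway genes in TAZ4SA against EV was 0.09 and, on total counts, −0.09, and that of mitochondrial ribosomal proteins in TAZ-CAMTA1 against EV was 0.01 and, by DESeq2, −0.01. The counts of 78 members in TAZ4SA against EV and in TAZ-CAMTA1 and YAP-TFE3 against their hyperactive counterparts held without any 1 library, with medians of 0.97 to 1.45, −1.77 to −1.30 and −1.85 to −1.61. In YAP5SA against EV the range was 72 to 79 higher and 1 to 1 lower, with medians of 1.20 to 1.46. With only the 2 groups in the fit TAZ4SA against EV had 75 members higher, beside 3109 of all genes. The smaller counts depended on the processing, and the cause was not tested. Members called lower in TAZ-CAMTA1 against EV were 5 by edgeR, 11 by DESeq2, 8 with RLE size factors, 15 on total counts, 11 with no filter and 46 with only the 2 groups in the fit. Without 1 library they ranged from 0 to 9, with medians of −0.39 to −0.27. Members lower in YAP-TFE3 against EV were 5 by edgeR, 18 by DESeq2, 27 on total counts, 20 with no filter and 16 with only the 2 groups. Of all genes, in that order, 680, 1002, 786, 677 and 832 were lower. Without 1 library the members ranged from 0 to 15, beside 286 to 750 of all genes, with members' medians of −0.49 to −0.32. In TFE3 against EV 1 member was lower with only the 2 groups, beside 598 of all genes. The members' medians without 1 library ranged from −0.29 to −0.17. CAMTA1 against EVsub kept 0 calls without any library, with medians of −0.45 to −0.31. Members higher in EVsub against EV were 3 by edgeR, 6 on total counts and 6 with no filter. Of all genes, in that order, 1796, 1747 and 1688 were higher. Without 1 library the members ranged from 0 to 3, beside 1086 to 2109 of all genes, with members' medians of 0.13 to 0.27. Total counts gave a median of 0.98 in YAP5SA against EV and −1.36 in YAP-TFE3 against YAP5SA.

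A replicate block, the number of each library in its label, was also fitted. The members lower were then 4 in TAZ-CAMTA1 and 7 in YAP-TFE3 against EV, beside 1225 and 659 of all genes. All other counts of members were the same. In no comparison did every pair of libraries with the same number correlate above 0.1.

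With the 500 most abundant other genes left out of the total, the mean share on the members was 8.73% in CAMTA1, 9.83% in EV, 11.0% in EVsub, 7.87% in TAZ-CAMTA1, 19.6% in TAZ4SA, 8.41% in TFE3, 7.48% in YAP-TFE3 and 19.5% in YAP5SA. With relatives and copies added it was 6.11% in CAMTA1, 6.77% in EV, 7.73% in EVsub, 5.39% in TAZ-CAMTA1, 13.8% in TAZ4SA, 5.80% in TFE3, 5.05% in YAP-TFE3 and 13.4% in YAP5SA. Without 1 library the share ranged from 5.34% to 5.72% in CAMTA1, 5.80% to 6.35% in EV, 6.65% to 7.23% in EVsub, 4.71% to 4.90% in TAZ-CAMTA1, 11.3% to 13.9% in TAZ4SA, 5.03% to 5.29% in TFE3, 4.23% to 4.97% in YAP-TFE3 and 11.3% to 12.8% in YAP5SA.

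The 332 pairs had 3317 alternative values, of which 3156 kept their side of the threshold, 126 lost a call and 35 gained one. Mean counts were 5.75 for Rpl3l and 9.5 for Rpl24, so that their values rest on few reads, and 679 or more for every other member.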
